A study of Mus musculus with 4 samples.

Results

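Prox1, Marcksl1, Igfbpl1 and Hes1 are genes of dentate granule cells and of the making of new neurons. They were read at every feature of the deposited value table that the platform annotation names by 1 of these 4 symbols, which gave 5 features of 16281. Of these, 1 stands for Prox1, 2 for Marcksl1, 1 for Igfbpl1 and 1 for Hes1. All 5 had a value on all 4 arrays, and none carried a second symbol. The genes were chosen by their names with the log ratios of these same arrays already known, so their values are given as a description, with no p-value for any of them.

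The series held 4 two-colour microarrays, 1 for each of 1, 2, 4 and 6 h. Each array compared dentate gyrus RNA from 2 groups of young male C57BL/6J mice. The Cy3 channel held RNA of mice given saline (5 µL per g), and the Cy5 channel RNA of mice given MK-801. MK-801 (dizocilpine) blocks the channel of the NMDA-type glutamate receptor, and its dose is printed as labelled, 300 micro-g per g body weight. Mice are usually given much less, so the unit in the label may be wrong. Times were counted from the last shock of the MK-801 mice. The labels also describe the RNA of both channels as coming from control mice, so it is unclear whether the mice whose RNA was hybridised had received shocks. The number of mice behind each RNA is not given in the labels. No time was repeated and no dyes were swapped, so values at a single time have no replicate check.

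The dentate gyrus adds granule neurons through life. Stem cells at its inner border are kept undivided and undifferentiated in part by Notch signalling: a bound Notch receptor releases its inner domain, which joins the DNA-binding protein RBPJ and switches on repressor genes such as Hes1. HES1 is a basic helix-loop-helix protein that silences the genes of neuronal commitment. Newborn neurons then pass through an immature stage marked by doublecortin, in which Igfbpl1, a secreted relative of the insulin-like growth factor binding proteins, and Marcksl1, a membrane protein of the MARCKS family that binds actin and calmodulin, are highly expressed. PROX1 is a homeodomain transcription factor that specifies granule cells and stays in them for life.

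Promoter sequence from RefSeq (build GRCm38.p6) was found for 2 of the 4 genes, Prox1 with 2 start sites and Marcksl1 with 1. Because Notch and HES1 act in the stem cells from which granule neurons arise, the 250 bases before each start are shown. They were searched on both strands for the core of the RBPJ site, TGGGAA, and for the N-box, CACNAG, to which HES proteins bind. Matches on either strand are in capitals.
Prox1, upstream start, chr1:190170828-190171077, minus strand: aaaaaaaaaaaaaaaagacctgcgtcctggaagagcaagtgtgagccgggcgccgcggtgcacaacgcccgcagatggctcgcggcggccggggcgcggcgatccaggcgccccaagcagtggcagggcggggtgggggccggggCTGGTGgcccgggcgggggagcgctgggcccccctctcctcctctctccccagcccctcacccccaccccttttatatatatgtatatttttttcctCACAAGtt
Prox1, downstream start, chr1:190169516-190169765, minus strand: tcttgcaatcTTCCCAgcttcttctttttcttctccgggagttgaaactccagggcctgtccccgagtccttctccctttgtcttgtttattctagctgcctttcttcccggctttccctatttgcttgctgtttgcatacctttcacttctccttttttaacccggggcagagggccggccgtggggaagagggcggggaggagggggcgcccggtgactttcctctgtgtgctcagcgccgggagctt
Marcksl1, chr4:129513331-129513580, plus strand: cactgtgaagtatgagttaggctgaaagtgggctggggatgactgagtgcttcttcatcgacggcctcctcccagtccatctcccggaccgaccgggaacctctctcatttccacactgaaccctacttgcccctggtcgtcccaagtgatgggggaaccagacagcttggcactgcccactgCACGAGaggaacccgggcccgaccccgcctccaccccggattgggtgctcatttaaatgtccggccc
The first Prox1 window held 2 N-boxes and the second held 1 RBPJ core. The Marcksl1 window held 1 N-box, beginning 67 bases before the start. Among 32851 RefSeq promoter windows of this length, 36.7% held an N-box and 21.6% an RBPJ core, so both motifs are common. A match is a run of letters and does not show that a protein binds there.

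All values below are log ratios read as log2, centred on the median of their array. Neither the log base nor the direction of the ratio is stated, and natural logarithms are possible. A negative value may stand for less RNA in the MK-801 channel or for less in the saline channel, so the sign is that of the deposited table and no treatment is called higher. An exact 0 filled 24.9% to 37.4% of the features of an array and was read as no value. The features with a value numbered 10185 to 12227 per array. The 2, 4 and 6 h arrays correlated with each other across features (Pearson's r 0.68 to 0.85), while the 1 h array stood apart (r -0.10 to -0.08 with the others). Features are not independent replicates, so these coefficients are descriptions. The table holds ratios and no intensities, so neither the level of a gene nor the labelled tissue could be checked through its markers.

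Hes1 had by far the lowest ratios of the 4 genes. Its log ratios at 1, 2, 4 and 6 h were -1.20, -3.36, -3.74 and -3.16. The value at 1 h lay well above the other three, which were close together. Their mean was -3.42 ± 0.30 (SD, n = 3 arrays), and that of all 4 arrays was -2.86 ± 1.14 (SD, n = 4 arrays). Read as log2, the channels differed 2.29 times at 1 h and 13.4 times at 4 h. Only 19, 5, 6 and 12 features were lower than Hes1 at 1, 2, 4 and 6 h. Hes1 was the only member at or below -1 on every array. The background for that limit was 0.453%, 0.969%, 2.1% and 1.47% of features with 1 symbol at 1, 2, 4 and 6 h. At or above 1 were 1.68%, 0%, 0.112% and 0.131% of them, and no member reached that side.

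Igfbpl1 came next. Over the 4 times in order, its log ratios were -0.83, -1.35, -1.65 and -1.85. The value was lower at each later time, a pattern of single arrays that has no test. Igfbpl1 averaged -1.42 ± 0.44 (SD, n = 4 arrays) and was at or below -1 on 3 arrays. Between 0.605% and 1.7% of features were lower than Igfbpl1 on any array. Read as log2, its channels differed 1.78 times at 1 h and 3.60 times at 6 h.

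Marcksl1 was read by 2 features that did not give the same picture. Feature 9047 had -0.33, -0.48, -0.95 and -0.88 at 1, 2, 4 and 6 h, a mean of -0.66 ± 0.30 (SD, n = 4 arrays). Feature 17309 had -0.22, -0.20, -0.24 and -0.05, a mean of -0.18 ± 0.08 (SD, n = 4 arrays). Both were negative on every array, and neither reached -1. They were close at 1 h and parted at the later times. The first minus the second gave -0.11, -0.28, -0.71 and -0.82. Among genes with exactly 2 features, the median absolute difference was 0.20 at 4 h and 0.17 at 6 h. A smaller difference than that of Marcksl1 was found in 22.2%, 62.1%, 86.9% and 92.2% of such genes at the 4 times. The size of the Marcksl1 ratio at 4 and 6 h therefore depends on the feature that is read.

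Prox1 was the only member with positive values. It had -0.57, 0.04, 0.60 and 0.21 at 1, 2, 4 and 6 h. It was negative on the array that stood apart from the rest and lay above 0 on the other three. At 1 h, 4.59% of features were lower than Prox1, and at 4 h 1.96% were higher. The mean was 0.07 ± 0.49 (SD, n = 4 arrays), smaller than the spread between arrays. It was -0.11 without the 4 h array and 0.29 without the 1 h array, so even its sign rests on single arrays.

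In order of their means, Hes1, Igfbpl1, the first Marcksl1 feature, the second Marcksl1 feature and Prox1 ran from lowest to highest. The ranges over the arrays overlapped between Hes1 and Igfbpl1, between Igfbpl1 and the first Marcksl1 feature, and between Prox1 and each Marcksl1 feature. Those of the Marcksl1 features did not overlap. The order of the means held on the 2, 4 and 6 h arrays, while at 1 h Prox1 lay below both Marcksl1 features.

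**Figure D1:**
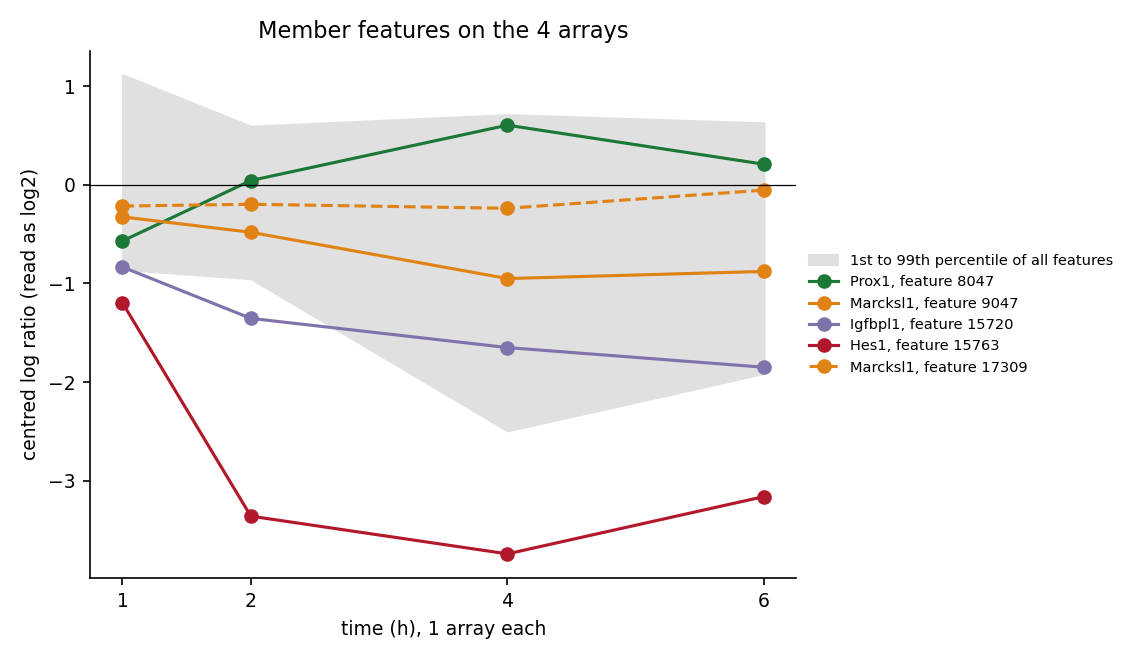
Centred log ratio (read as log2, vertical axis) of the 5 member features against time in hours, 1 array per time; the grey band spans the 1st to 99th percentile of all features. Hes1 lies below the band on all 4 arrays, with -3.74 at 4 h, and Prox1 goes from -0.57 at 1 h to 0.60 at 4 h.

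The features are numbered in the deposited table, and the numbers around Hes1 held other very low values. No label or header says whether the numbers follow the order of spots on the slide. Of the features within 10 numbers of Hes1, 3 of 14 with a value were at or below -1 at 1 h. At 2 h 10 of 17 were, and at 4 h and 6 h 10 of 15. Lhx1, a LIM homeodomain transcription factor on the next number, had -1.22, -3.35, -3.66 and -2.98. Nfkbib, an inhibitor of NF-kappa-B on the number before, had -0.95, -3.16, -3.42 and -2.79. Kcnj12, a potassium channel gene 2 numbers on, had -1.29, -3.48, -3.78 and -2.89. The 4 values of these genes were close to those of Hes1. The others at or below -1 at 2, 4 and 6 h were Wnt10b, Scgb1b2, Psg17, Sdc3, Ebi3, Rora and Akt2. At 1 h they were Lhx1, Kcnj12 and Sdc3.

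Some of these neighbours have another feature elsewhere in the table. For Kcnj12 it had 0.28, -0.28, -0.29 and -0.25 at 1, 2, 4 and 6 h. For Psg17 it had 0.11, 0.01, 0.32 and 0.24, and for Akt2 -0.16, 0.22, 0.14 and 0.07. None of the 3 was at or below -1, although the features of these genes near Hes1 were below it at 2, 4 and 6 h. For Nxf1, an mRNA export factor, the feature elsewhere was the lower one. Its feature 8 numbers from Hes1 had -0.84, -0.91 and -0.88 at 2, 4 and 6 h. Its feature elsewhere, 1261, had -2.62 and -2.83 at 4 and 6 h. Among features numbered 1200 to 1299, with this one included, 5 of 50 values were at or below -1 at 4 h. At 6 h, 3 of 43 were. Hes1 itself has a single feature, so the same comparison could not be made for it. Hes1 minus the median of its neighbours came to -0.62, -1.72, -1.31 and -0.74. None of the neighbours from 15753 to 15760 was at or below -1, and the low ones began at 15761. The median thus mixes low neighbours with others, and its size depends on where the window lies. With each feature set against the median of its neighbours, a setting chosen after the data were seen, the mean of Hes1 went from -2.86 to -1.09. The part of feature number in the Hes1 ratio was not tested beyond these values.

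Around Igfbpl1 the picture differed. Of its neighbours with a value, 0 of 14, 1 of 14, 0 of 11 and 0 of 13 were at or below -1 at the 4 times. The exception was Adssl1, an enzyme of purine synthesis on the next number, with -0.53, -1.29, -0.69 and -0.70. Dck, a deoxycytidine kinase 2 numbers on, had -0.07, -0.92, -0.71 and -0.67. No neighbour was lower than Igfbpl1 on any array. Igfbpl1 minus the median of its neighbours was -0.78, -1.32, -1.48 and -1.78, close to its own ratios. Of the numbers above Igfbpl1, only 15721 to 15724 had a value, so this median rests mostly on the numbers below it. The mean of Igfbpl1 was -1.34 with local medians taken off and -1.42 without.

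None of the neighbours of Prox1 or of either Marcksl1 feature was at or below -1. The first Marcksl1 feature minus the median of its neighbours was -0.17, -0.35, -0.95 and -0.82. For the second Marcksl1 feature that difference was -0.17, -0.08, -0.01 and 0.00, so at 4 and 6 h it did not stand apart from the numbers around it. Its mean was -0.064 with local medians taken off, against -0.18. Prox1 minus its neighbours' median was -0.74, -0.14, 0.48 and 0.11. Tpm3, a tropomyosin gene 2 numbers before Prox1, had -0.67, 0.16, 0.85 and 0.31, like Prox1 negative at 1 h and highest at 4 h. Elsewhere in the table, Tpm3 had 0.25, -0.00, 0.01 and -0.01 on feature 11551. On feature 16550 it had 0.39, -0.16, -0.17 and -0.12. Neither had that shape.

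**Figure D2:**
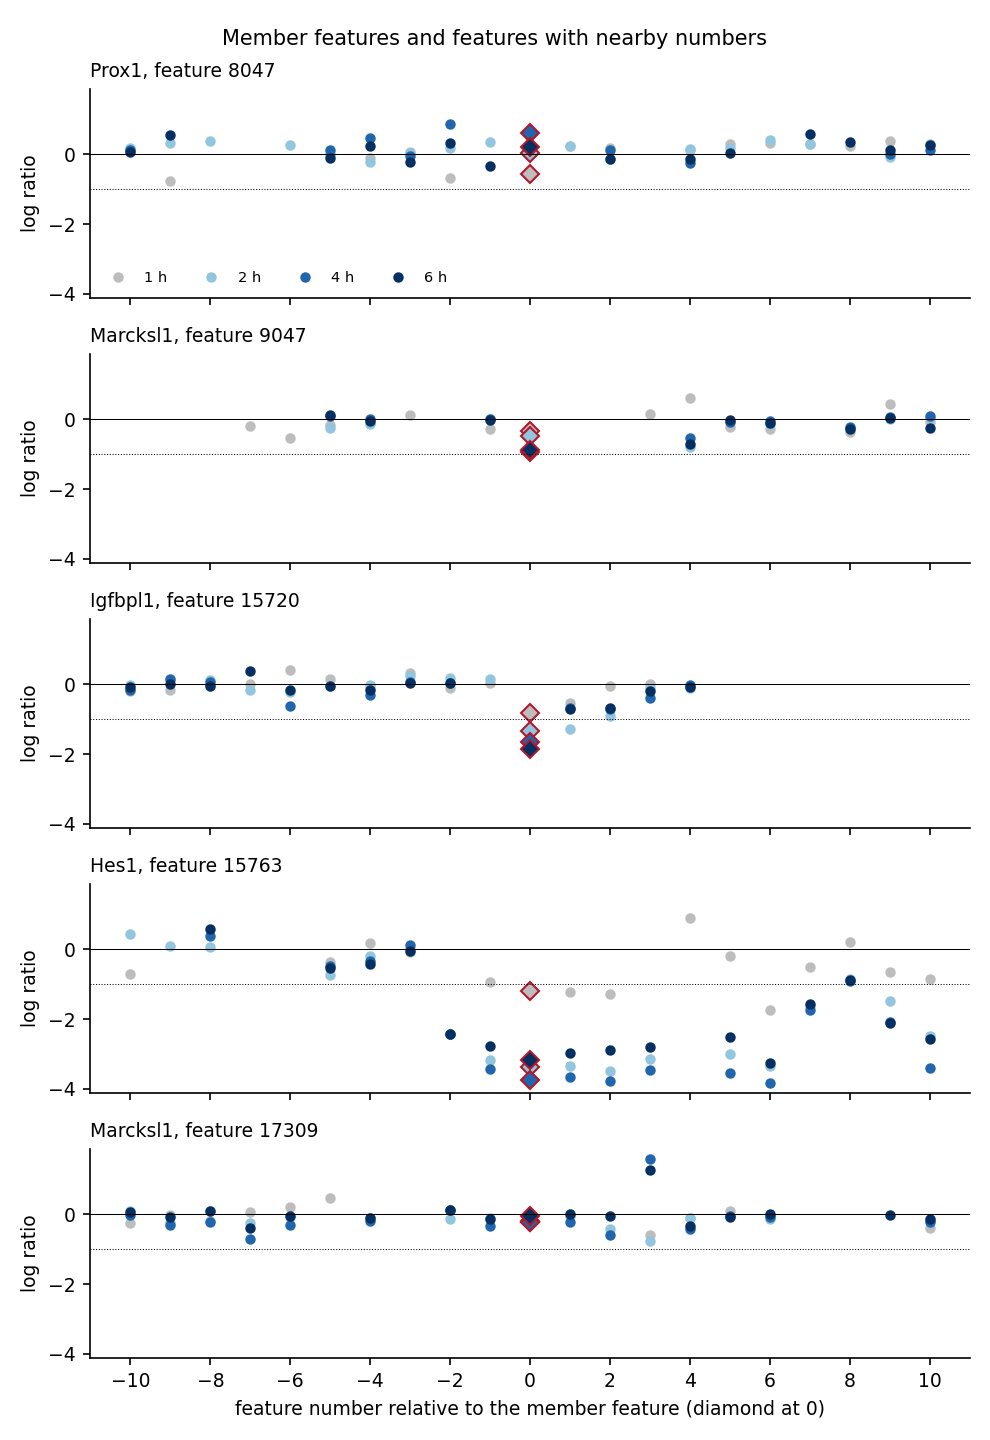
Centred log ratio (read as log2, vertical axis) at the 4 times of each member feature and of the features within 10 feature numbers of it (horizontal axis, feature number relative to the member). Near Hes1 10 of 15 neighbours are at or below -1 at 4 h; near Igfbpl1 0 of 11 are.

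Over the whole table the low values were gathered in stretches of numbers. In bins of 100 feature numbers, Hes1 and Igfbpl1 shared the bin from 15700 to 15799. Of its features with a value, 4 of 76, 15 of 82, 15 of 67 and 14 of 75 were at or below -1 at 1, 2, 4 and 6 h. Over all features, named or not, the shares were 0.412%, 0.957%, 2.0% and 1.44%. Only 1 of 172 bins had a larger share at 1, 2 and 6 h, and 2 of 171 at 4 h. The next bin, from 15800 to 15899, held 0%, 26.0%, 24.1% and 24.2%. Conversely, 117 of 171 bins held no such feature at 4 h. The bin of the first Marcksl1 feature held 3 of 57 at 4 h and 2 of 54 at 6 h. Those of Prox1 and of the second Marcksl1 feature held none at 2, 4 and 6 h.

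**Figure D3:**
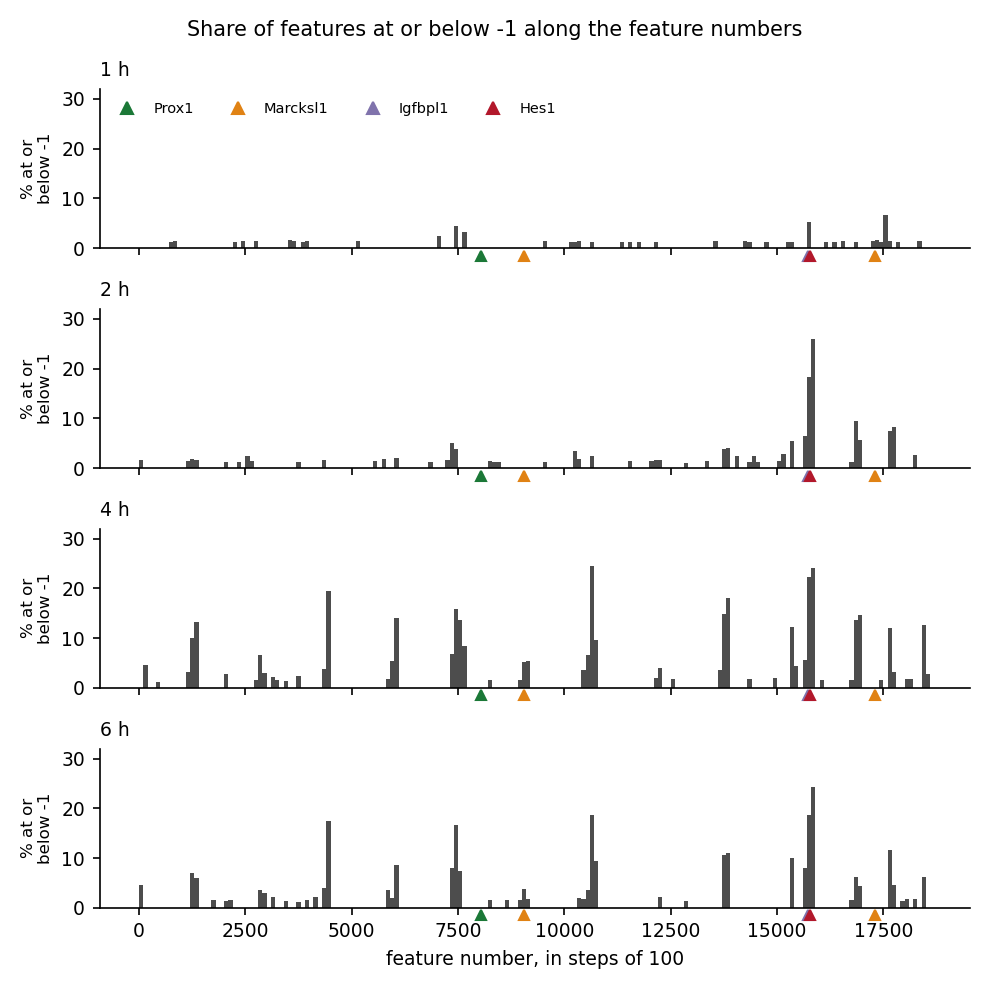
Percent of features with a value that were at or below -1 (vertical axis) in bins of 100 feature numbers (horizontal axis) at the 4 times, for bins with at least 20 values. The bin from 15700 to 15799, which holds Hes1 and Igfbpl1, reaches 22.4% at 4 h against 2.0% of all features.

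The features most like each member were found by the distance between their 4 ratios, over 7683 other named features with a value on all 4 arrays. For Hes1 they were Lhx1 (distance 0.20), Kcnj12 (0.31), Sdc3 (0.57), Nfkbib (0.58) and Xist (0.62). The first 4 lie within 6 numbers of Hes1. Xist lies at 17648, and 3 numbers from it Sox3, a transcription factor of neural progenitors, had -2.81, -3.23 and -2.84 at 2, 4 and 6 h. The bin from 17600 to 17699, which holds both, had 7.5%, 12.1% and 11.7% of its values at or below -1 at those times. For Igfbpl1 the nearest were Slc30a1 (0.35), Lin7c (0.47), Ebi3 (0.53), Rora (0.55) and Capn1 (0.74), all between 15770 and 15868. Only 7 features came within a distance of 1 of Hes1, and 5 of Igfbpl1.

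For the first Marcksl1 feature the nearest were Clasp2 (0.23), Panx1 (0.36), Inppl1 (0.38), Ccndbp1 (0.39) and Mapk8ip1 (0.40), with 411 features within 1. Panx1 at 15774 and Ccndbp1 at 15837 again belong to the stretch that holds Hes1. For Prox1 they were Smoc1 (0.15), Asph (0.17), Cr1l (0.17), Cd84 (0.17) and Dmkn (0.19), with 4906 features within 1. For the second Marcksl1 feature they were Galnt16 (0.06), Rpe (0.07), Ptges2 (0.07), Scamp4 (0.08) and Nelfe (0.08), with 7135 within 1. With so many features at like distances, a short distance says little for these last members.

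Other genes of the same pathways mostly had means near 0. The mean of the 4 log ratios was tested with limma, with the differences among the times taken as error. In this test 0 of 7684 features passed an adjusted p of 0.05, 0% in either direction. Before adjustment, 1138 were under 0.05. The lists held 91 features with a value on all 4 arrays, of 73 genes, and 0 passed in each of the 7 lists. Without the 1 h array 923 of 7684 features passed, and 14 of the 91 listed. With arrays weighted by their fit 2088 of 7684 passed (1097 positive, 991 negative), and 32 of the 91 listed (11 positive, 21 negative). With values needed on only 3 arrays 15 of 8944 passed, and 1 of 108 listed. After quantile normalisation 9 of 7684 passed, and 2 of the 91 listed. All that passed in these last 2 settings were negative. These counts include members and are not support for them. Over all 7684 features, 52.0% of the means were below 0 and the median mean was -0.01.

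Of the Notch pathway list (receptors, ligands, the cutting enzymes and RBPJ), 19 features were measured on all arrays, 11 had a mean below 0 and their median was -0.02. None of its features was at or below -1 on any array. Psen2, a catalytic subunit of the gamma-secretase that cuts Notch, had the mean furthest from 0, -0.53 ± 0.15 (SD, n = 4 arrays). It lies 5 numbers from Hes1. Mfng, a glycosyltransferase that modifies Notch, had 0.32 ± 0.15. Rbpj, the partner of Notch on DNA, had -0.12, -0.23, -0.33 and -0.24 at 1, 2, 4 and 6 h.

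Hes1 was alone among its relatives in the size of its ratio. In the list of Hes, Hey and Id repressors with the Groucho corepressors, it was the only feature at or below -1, 1 of 20 to 22 with a value on each array. Without it, 11 of 18 features had a mean below 0, and the median was -0.05. Hes5, another Notch target of neural stem cells, had 0.13, 0.02, 0.08 and 0.18 on 1 feature and -0.01, 0.12, -0.74 and -0.35 on the other. Hes6, which opposes HES1, had -0.22, -0.11, -0.05 and 0.03. Hey1, a further Notch target, had -0.02, -0.08, -0.05 and 0.05. With the features of a gene averaged, 3 genes other than Hes1 had the means furthest from 0. These were Id2 at -0.20 ± 0.36, Hey2 at 0.16 ± 0.21 and Id3 at -0.11 ± 0.17 (SD, n = 4 arrays).

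Stem cell genes had a median mean of 0.03 over 9 features, 4 of them below 0. Sox3, described above near Xist, belongs to this list and was its only feature at or below -1, at 2, 4 and 6 h. It had no value at 1 h and so is not among the 9. Gfap, the filament protein of radial stem cells and astrocytes, had 0.26 ± 0.25. Msi1, an RNA-binding protein of progenitors, had 0.20 ± 0.28, and Sox9, a transcription factor of stem cells and glia, -0.19 ± 0.08 (SD, n = 4 arrays).

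Of 14 immature-neuron features other than Igfbpl1 and Marcksl1, 11 had a mean below 0, against 52.0% of all features, and their median was -0.06. With those members it was 14 of 17, with a median of -0.10. None of the 14 passed the adjusted threshold, but none of all 7684 features did, so this does not set them apart. Sox11, a transcription factor of newborn neurons, had 0.13, 0.08, -0.82 and -0.72, so it was negative only at the later times. Neurod2, a basic helix-loop-helix activator, had -0.28 ± 0.20, and Sox4, a relative of Sox11, -0.17 ± 0.16 (SD, n = 4 arrays). Dcx, the doublecortin gene that defines this stage, stayed near 0 with -0.03, 0.06, -0.05 and -0.13. Neurod1, needed for granule cells to mature, had 0.06, 0.00, -0.17 and -0.11. The ratios of Igfbpl1 at 2, 4 and 6 h were thus far below those of Dcx and Neurod1 on the same arrays. In bulk tissue, a difference in the number of cells of a type and a difference in RNA per cell cannot be told apart.

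For granule cells 5 features were measured on all arrays, 4 with a mean below 0. Without Prox1 all 4 were below 0, against 52.0% of all features, with a median of -0.16. They were 2 features of Calb1 and 1 each of Trpc6 and Sema5a. Only 5 of the 13 listed genes were on the array. Calb1, the calcium buffer of mature granule cells, had -0.21, -0.16, -0.10 and -0.06 as the mean of 2 features. It was negative on each array, while Prox1 was positive on 3. Trpc6, a cation channel, had -0.20 ± 0.20, and Sema5a, a guidance protein, -0.13 ± 0.12 (SD, n = 4 arrays). Tdo2, an enzyme of tryptophan breakdown, had a value only at 4 h (0.39) and 6 h (0.15).

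Among relatives of Marcksl1, its closest, Marcks, was read by 3 features. They had -0.06, -0.15, -0.31 and -0.48, then 0.17, 0.02, -0.09 and -0.28, then -0.58, -0.05, -0.15 and -0.38 at 1, 2, 4 and 6 h. All 3 were negative at 4 and 6 h, as both Marcksl1 features were. The list with its kinases and calmodulin had 9 of 13 means below 0 and a median of -0.06, or 7 of 11 and -0.04 without Marcksl1. The protein kinase C genes, whose products phosphorylate MARCKS proteins, had means of both signs: Prkcb had 0.28 ± 0.29, Prkca 0.20 ± 0.08 and Prkcd -0.25 ± 0.24 (SD, n = 4 arrays).

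The insulin-like growth factor axis had 8 of 12 means below 0, with a median of -0.07, or 7 of 11 and -0.06 without Igfbpl1. Igfbpl1 was its only feature at or below -1, at 2, 4 and 6 h. On the other side Igfals, which codes for the acid-labile subunit of the IGF complex in blood, had 1.42 at 1 h, its only value. At 1 h 178 features with 1 symbol (1.68%) were at or above 1, and 23 of these had values on all 4 arrays. Igf2r, a receptor that clears IGF2, had 0.18 ± 0.13. Igfbp2 and Igfbp7, secreted binding proteins of the family, had -0.12 ± 0.19 and 0.12 ± 0.47 (SD, n = 4 arrays).

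**Figure D4:**
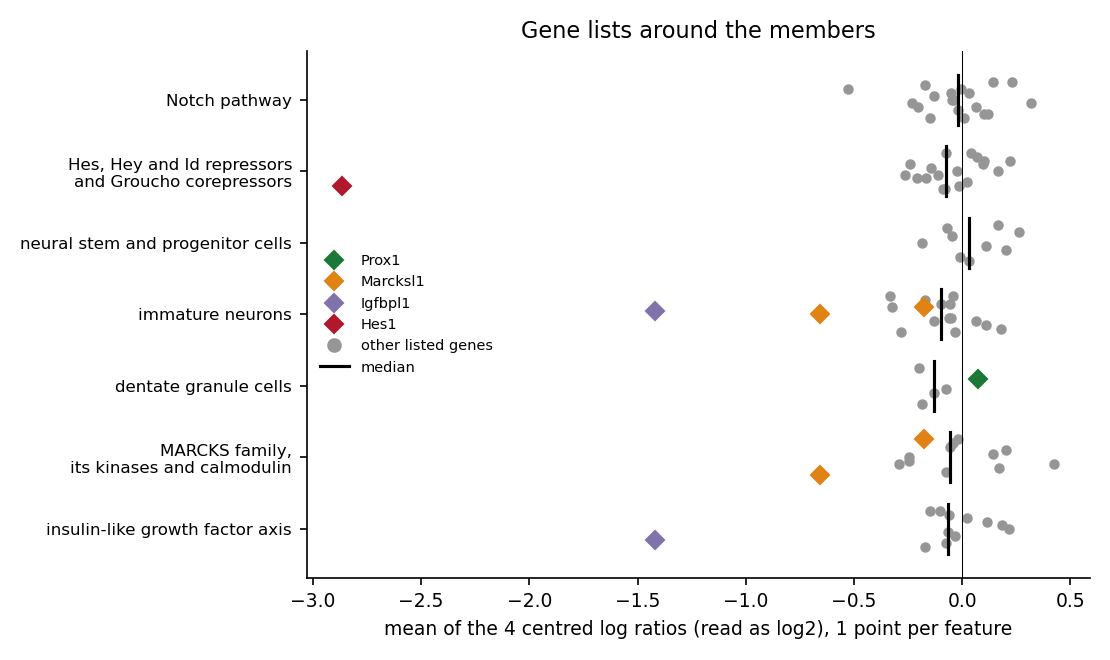
Mean of the 4 centred log ratios (read as log2) of each listed feature with a value on all 4 arrays, by gene list, with the member features marked. Hes1 at -2.86 and Igfbpl1 at -1.42 lie far from the other points of their lists.

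Markers of other cells in the tissue were near 0 at most times. Median ratios at 1, 2, 4 and 6 h were -0.10, 0.05, 0.09 and 0.09 for astrocytes (8 features on all arrays). For microglia they were 0.22, 0.11, 0.17 and 0.24 (8 features), positive on every array. Oligodendrocytes had 0.01, 0.10, 0.17 and 0.06 (8 features), and inhibitory neurons -0.12, 0.07, 0.05 and 0.02 (8 features). Of 5 listed choroid plexus genes, 2 had a value on all arrays. Their median was -0.20, -0.90, -0.60 and -0.70 (3 features), lower at 2, 4 and 6 h than at 1 h. That median was the value of Ttr, the transthyretin gene that defines this tissue, on each array. The features of Kl, the klotho gene, parted, with -0.24, -0.20, -0.11 and -0.09 on 1 and 0.20, -2.64, -3.03 and -3.18 on another. A further Kl feature, with values only at 1 and 2 h, had 0.05 and -0.55. The low Kl feature, 13730, lies in the bin from 13700 to 13799. That bin held 2 of 51, 7 of 47 and 5 of 47 values at or below -1 at 2, 4 and 6 h. Endothelium had -0.22, 0.15, -0.00 and 0.05 (3 features), and pyramidal neurons of the neighbouring CA fields 0.25, -0.25, -0.12 and -0.04 (3 features). Blood was read by 1 feature, with 0.24, 0.49, 0.09 and 0.21. The part of other tissue in the member ratios was not tested.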

How the data were processed

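Each array co-hybridised saline (Cy3) and MK-801 (Cy5) RNA. The authors deposited 1 table of log ratios, read here as log2; its base, direction, background correction and normalisation are not given in the sources used here. Exact 0 was read as no value. Each array was centred on its median. Of 16281 features, 13738 had 1 symbol in the platform annotation, 52 several and 2491 none. Entrez identifiers of 13694 matched the GRCm38.p6 gene table, with 0 symbols changed. The limma 3.58.1 mean fit (R 4.3.3, lmFit and eBayes, two-sided, Benjamini-Hochberg at 0.05) took features with 1 symbol and values on all 4 arrays. It was tested on simulated data. With 1 array per time, its p-values measure the spread between times. The members and lists were chosen with earlier results of these data known. Named besides members were 3 genes per list, those of largest absolute mean, the 5 features nearest each member, and features within 10 numbers of one; a few further relatives were chosen after their values were seen. Alternatives were scaling, array weights, filters, a natural-log reading, single arrays left out and local centring.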

Additional observations from a re-analysis of the deposited data

Results flagged for a closer look

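Prox1 had opposite signs at 2 times, each at least 0.5 in size. Its 4 h log ratio was 1.17 above that at 1 h (0.60 against -0.57). Each time is 1 array, and the difference was not tested.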

How the results depend on the processing

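The means of the 5 member features kept their sign under every scaling and left-out array tried, except for Prox1, whose mean was -0.11 without the 4 h array and -0.07 with local centring. Local centring, chosen after the data were seen, moved the mean of Hes1 to -1.09 and that of Marcksl1 feature 17309 to -0.064. The count of 0 features past the adjusted threshold became 2088 of 7684 with array weights and 9 of 7684 with quantile normalisation. It became 15 of 8944 with values on at least 3 arrays, and ran from 0 to 923 of 7684 with single arrays left out. For listed features the count of 0 became 32 of 91, 2 of 91 and 1 of 108, and ran from 0 to 14 of 91. The cause was not tested. Features at or below -1 numbered 48, 103, 187 and 135 at 1, 2, 4 and 6 h. Read as natural logs they were 255, 206, 289 and 227. Among features with values on all 4 arrays they were 29, 56, 48 and 43. Equal spread of the arrays gave 7 at 1 h. Features at or above 1 numbered 178, 0, 10 and 12. As natural logs they were 477, 29, 101 and 60. Values on all 4 arrays gave 23 at 1 h and 6 at 6 h. Equal spread gave 37, 21 and 27 at 1, 4 and 6 h, and local centring 7, 28 and 20 at 2, 4 and 6 h. Single arrays, no dye swap and no intensities limit every value.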

Other observations

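Beyond the bin of Hes1, the stretches rich in low values recurred along the table. At 4 h, 16 of 171 bins of 100 feature numbers had at least 10% of their values at or below -1, and these held 133 of the 204 such features. They began at 1200, 1300, 4400, 6000, 7400, 7500, 10600, 13700, 13800, 15300, 15700, 15800, 16800, 16900, 17600 and 18400. At 6 h there were 9 such bins, at 2 h 2 and at 1 h 0.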
